A study of Homo sapiens with 12 samples.

Results

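The comparison described here is between BEAS-2B cells given TGF-β1 and then dexamethasone and BEAS-2B cells given dexamethasone alone. It shows what TGF-β1 did to transcript levels in cells that all received the glucocorticoid. The libraries were chosen by their labels, and 6 of the 12 libraries of the series entered it, 3 per group. BEAS-2B cells derive from human bronchial epithelium and carry viral genes that immortalise them, so every group is a culture of 1 transformed line. All cells spent 24 h in medium free of serum and steroid. The first group then received TGF-β1 at 40 pM for 24 h and dexamethasone at 30 nM for a further 4 h, and is called TGF-β1 then dexamethasone below. The second group, called dexamethasone alone, received dexamethasone at 30 nM for 4 h without TGF-β1. The remaining 6 libraries, of cells with TGF-β1 alone (40 pM, 24 h) and of untreated control cells, shared the model and served to compare the TGF-β1 effect with and without dexamethasone. The labels state neither the vehicle of the treatments nor whether TGF-β1 stayed in the medium during the final 4 h. The growth protocol names A549, another lung line, while every other label says BEAS-2B, and which line the libraries hold was not tested. Of 10 alveolar and A549 transcripts, the surfactant genes were under 1 CPM in the 6 libraries, while CPS1, a urea cycle enzyme, was at 16.4 to 21.6 CPM after TGF-β1 then dexamethasone and 18.9 to 27.1 CPM after dexamethasone alone. ALDH3A1, an aldehyde dehydrogenase, was at 0.547 to 4.18 CPM after TGF-β1 then dexamethasone and 6.95 to 26 CPM after dexamethasone alone. AFAP1L2 was at 19 to 24.3 CPM after TGF-β1 then dexamethasone and 6.84 to 10.8 CPM after dexamethasone alone.

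TGF-β1 is a secreted growth factor that binds a pair of serine/threonine kinase receptors, which phosphorylate SMAD2 and SMAD3. These bind SMAD4, enter the nucleus and act on genes of matrix, adhesion and growth control, and some of the induced genes feed back to limit the pathway. In airway epithelium TGF-β1 is known for repair, matrix deposition and a partial change of epithelial cells toward a mesenchymal state. Dexamethasone, a synthetic steroid drug, binds and activates the glucocorticoid receptor, a transcription factor encoded by NR3C1 and a drug target in airway inflammation.

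Total counts lay between 6085495 and 19727235 in the 6 libraries, and replicate 3 of either group was sequenced more deeply than replicates 1 and 2. Levels are given as CPM, counts scaled to a common total on library sizes scaled by TMM, a normalisation that sets the typical gene to no change. Effects are log2 fold changes of TGF-β1 then dexamethasone over dexamethasone alone, each with a standard error (SE) and an adjusted p from edgeR's quasi-likelihood test with the replicate number as a block and Benjamini-Hochberg adjustment over the 13469 genes tested. A gene is said to have risen or fallen only where that p was under 0.05. Airway basal cell markers were all 10 tested, and their summed level was 4188 to 6320 CPM after TGF-β1 then dexamethasone and 2512 to 3765 CPM after dexamethasone alone. Of these markers 6 rose and 2 fell, KRT15 (-3.08) and NGFR (-1.3, SE 0.25, adjusted p = 0.00018). The secretory and ciliated airway markers summed to 1.03 to 1.74 CPM after TGF-β1 then dexamethasone and 1.77 to 6.69 CPM after dexamethasone alone, with SCGB3A2 and BPIFA1 at 0, so markers of differentiated airway cells were at or near 0.

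TGF-β1 changed about as many genes upward as downward in cells that also had dexamethasone. Of 13469 genes tested, 3229 rose (24.0%) and 3498 fell (26.0%), so that 49.9% were past the test in either direction. Counts of list members below are to be read against these shares. A change of at least 2-fold was seen in 776 genes that rose (5.76%) and 721 that fell (5.35%). The libraries of the groups did not overlap for 42.9% of genes, a share to set beside each separation given below. Genes named for the largest rises and falls were chosen among those without overlap. Without the replicate block 2145 genes rose and 2207 fell. The median log2 fold change of all genes was -0.026, and -0.231 when libraries were scaled by total count alone, which gave 1804 genes higher and 6452 lower (21.9% of calls higher in place of 48.0%). Directions below are relative to the TMM scale.

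**Figure D1:**
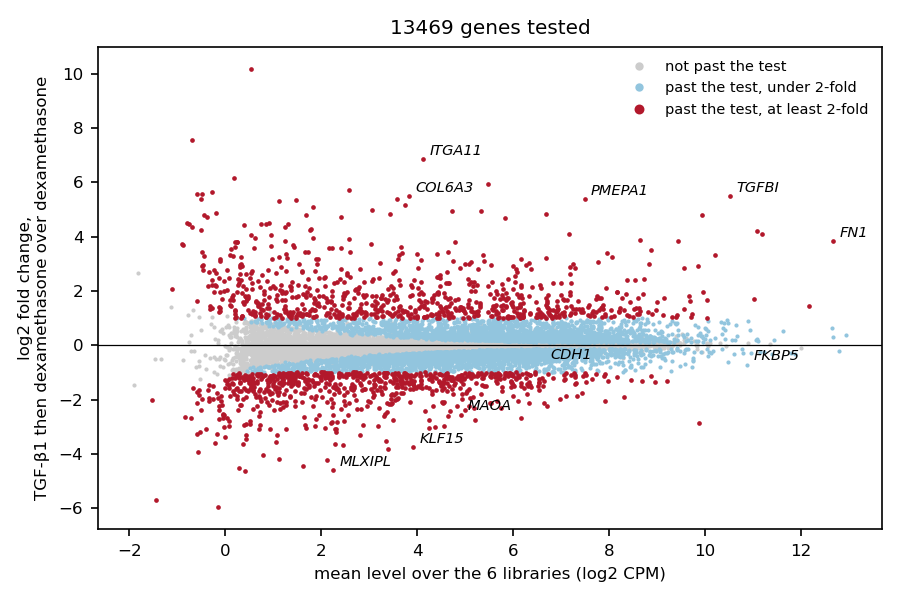
Log2 fold change of TGF-β1 then dexamethasone over dexamethasone alone (y axis) against the mean level over the 6 libraries in log2 CPM (x axis), with 1 point per gene tested. Grey points did not pass the test, light blue points passed it with a change under 2-fold, and red points passed it with at least 2-fold; TGFBI (5.49), PMEPA1 (5.39) and ITGA11 (6.87) stand high and MLXIPL (-4.58) and KLF15 (-3.75) low.

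Genes of the TGF-β pathway itself moved strongly. Of 52 tested members of the pathway list 38 rose and 5 fell, with a median log2 fold change of 0.87. TGFBI, whose product is secreted into the matrix, was measured at 11490, 9214 and 8945 CPM after TGF-β1 then dexamethasone, against 249, 238 and 177 CPM after dexamethasone alone (log2 fold change 5.49, SE 0.08, adjusted p = 5.27e-21). The lowest library with TGF-β1 lay far above the highest without it. CCN2, a matricellular protein also known as connective tissue growth factor, averaged 574 ± 135 CPM after TGF-β1 then dexamethasone and 171 ± 43 CPM after dexamethasone alone (SD, n = 3 each; 1.74, SE 0.23, adjusted p = 0.000812). The groups overlapped for neither gene.

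The feedback inhibitors of the pathway rose as a group. All 14 tested feedback members were higher, 11 of them at least 2-fold, with a median of 1.82. PMEPA1, a membrane protein that sequesters SMAD2 and SMAD3, was at 1418, 886 and 1309 CPM after TGF-β1 then dexamethasone, against 34.9, 18.3 and 32 CPM after dexamethasone alone (5.39, SE 0.08, adjusted p = 1.23e-18). SMAD7, the inhibitory SMAD that blocks the type I receptor, was at 73.9, 56.4 and 65.8 CPM, against 7.98, 8.48 and 4.64 CPM after dexamethasone alone (3.37, SE 0.17, adjusted p = 1.99e-08). Both genes were separated between the groups in every library, as were 20.8% of all genes in this direction.

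Ligands, receptors and signal-carrying SMADs were split. Of 7 tested ligands 4 rose and 1 fell, and all latency proteins past the test rose (5 of 6 tested). TGFB1, the gene of the ligand itself, was at 481, 318 and 429 CPM after TGF-β1 then dexamethasone, against 133, 115 and 114 CPM after dexamethasone alone (1.76, SE 0.08, adjusted p = 6.62e-10); it was named after its values were seen. Of 7 receptors 4 rose and 2 fell. The 2 that fell were TGFBR2, the type II receptor that binds the ligand, and TGFBR3, the co-receptor betaglycan. TGFBR2 was at 227, 242 and 206 CPM after TGF-β1 then dexamethasone, against 569, 654 and 433 CPM after dexamethasone alone (-1.27, SE 0.10, adjusted p = 3.81e-06). TGFBR3 averaged 24.7 ± 2.69 CPM, against 118 ± 19.9 CPM after dexamethasone alone (-2.30, SE 0.18, adjusted p = 1.28e-05). Of the 6 SMADs that carry the signal or share it, SMAD5, named after its values were seen, rose by 0.18 on the log2 scale and SMAD3 fell by 1.04 on the log2 scale (SE 0.18, adjusted p = 0.00188), and the other 4 did not pass the test. The SMAD5 call ended with scaling by total count alone (-0.02), without the block (0.18), without replicate 3 of TGF-β1 then dexamethasone (0.15), and without replicate 1 or replicate 3 of every group (0.18 and 0.15). SMAD3 stood at 39.4, 34.3 and 30.6 CPM after TGF-β1 then dexamethasone, against 77.2, 66.5 and 67.1 CPM after dexamethasone alone, with no overlap.

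**Figure D2:**
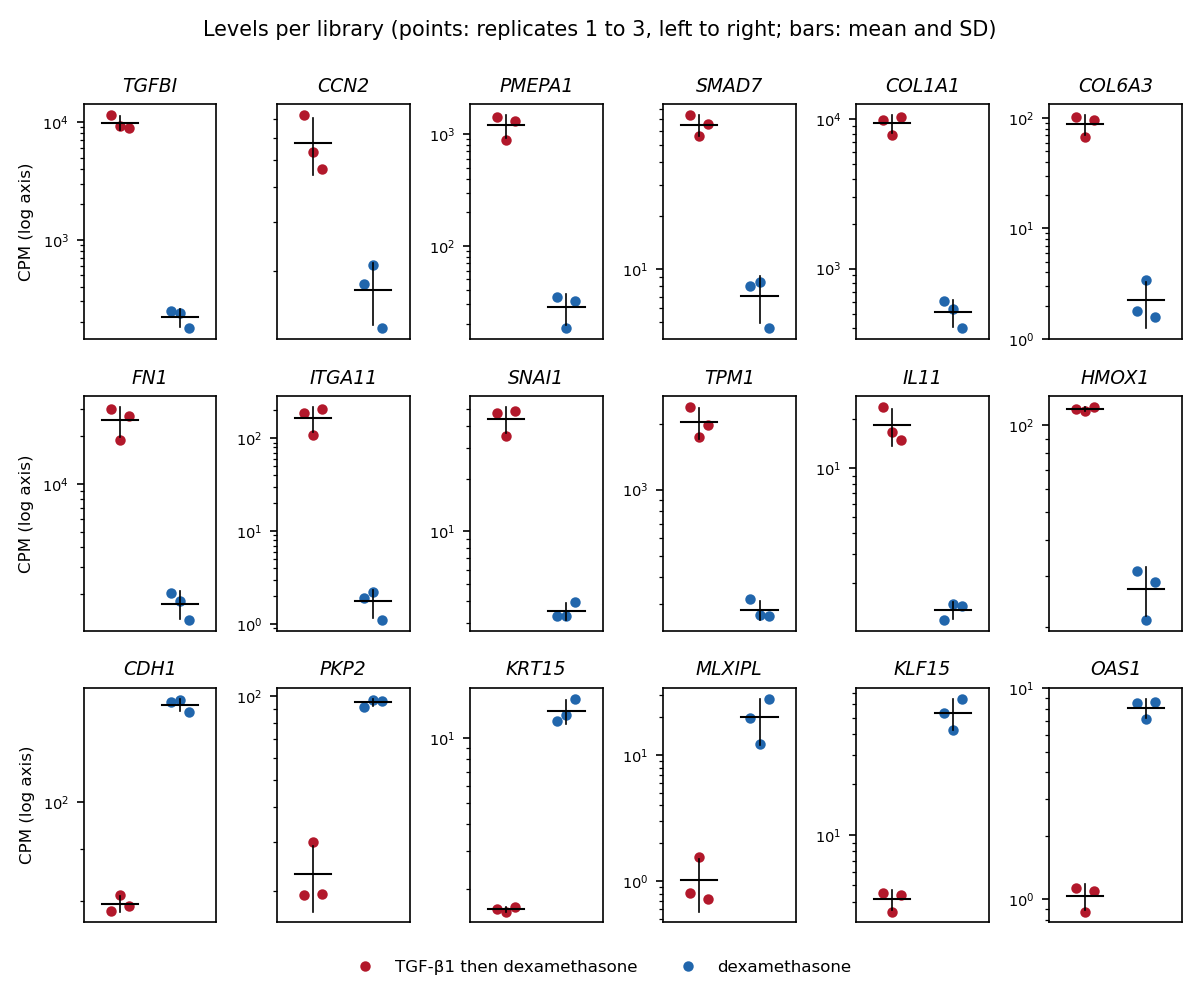
CPM on log axes in each library of TGF-β1 then dexamethasone (red) and dexamethasone alone (blue) for 18 genes, with points for replicates 1 to 3 from left to right and bars for the mean and SD. The groups are apart in every panel, with TGFBI at 8945 to 11490 CPM against 177 to 249 CPM and CDH1 at 78.3 to 81.1 CPM against 123 to 126 CPM.

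Collagens and the enzymes that process them rose in most members. Of 44 tested members 37 rose and 4 fell, with a median of 1.16, and 26 of the rises were at least 2-fold. Among processing enzymes, such as prolyl and lysyl hydroxylases and lysyl oxidases, 18 of 19 rose, and among collagen chains 19 of 25 rose and 4 fell. COL1A1, which encodes a chain of collagen I, was at 9905, 7888 and 10340 CPM after TGF-β1 then dexamethasone, against 608, 536 and 399 CPM after dexamethasone alone (4.20, SE 0.18, adjusted p = 1.49e-06). COL1A2, its partner chain, averaged 216 ± 17.8 CPM, against 7.34 ± 1.84 CPM after dexamethasone alone (4.93, SE 0.08, adjusted p = 6.13e-21). COL6A3, a chain of the beaded-filament collagen VI, was at 102, 67.7 and 95.5 CPM, against 1.77, 3.42 and 1.58 CPM after dexamethasone alone (5.49, SE 0.23, adjusted p = 1e-08). None of these 3 overlapped between the groups, as was so for 20.8% of all genes in this direction. The chains that fell included COL8A1, a short-chain network collagen, at 128, 95 and 108 CPM against 208, 191 and 175 CPM after dexamethasone alone (-0.79, SE 0.07, adjusted p = 4.59e-09), and COL4A5, a basement membrane collagen, with a log2 fold change of -0.77.

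Other matrix genes, proteases and adhesion receptors followed the same direction in most members. Of 51 matrix glycoproteins and proteoglycans 33 rose and 8 fell (median 0.89), of 44 proteases and inhibitors 28 rose and 7 fell (median 0.82), and of 33 integrins and focal adhesion genes 22 rose and 6 fell (median 0.43). FN1, fibronectin (Entrez gene 2335, GRCh38.p14 chromosome 2, 215360865 to 215436068), was at 29860, 19130 and 26890 CPM after TGF-β1 then dexamethasone, against 2049, 1813 and 1377 CPM after dexamethasone alone (3.84, SE 0.20, adjusted p = 4.34e-06). FN1 alone made up 1.81% to 2.63% of raw counts after TGF-β1 then dexamethasone and 0.146% to 0.213% after dexamethasone alone. MFAP2, a microfibril glycoprotein, was at 76.7, 75 and 81 CPM, against 1.63, 2.83 and 2.15 CPM after dexamethasone alone (5.16, SE 0.13, adjusted p = 4.16e-18). FAP, a serine protease of activated fibroblasts, was at 97.9, 33.9 and 141 CPM, against 2.37, 0.446 and 3.45 CPM after dexamethasone alone (5.40, SE 0.12, adjusted p = 8.39e-19). Replicate 2 had the lowest FAP level in both groups, and the groups did not overlap. Members that fell included a protease inhibitor and a laminin. SLPI, an airway inhibitor of leukocyte protease, averaged 6.19 ± 1.95 CPM and 19.8 ± 1.16 CPM after dexamethasone alone (-1.80, SE 0.15, adjusted p = 2.31e-09). LAMA5, a laminin chain of epithelial basement membrane, was at 269, 435 and 268 CPM, against 642, 911 and 568 CPM after dexamethasone alone (-1.13, SE 0.07, adjusted p = 1.18e-08).

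ITGA11, the alpha chain of a collagen-binding integrin (Entrez gene 22801, chromosome 15, 68296532 to 68432163), had the largest rise of any gene with a mean level of at least 1 log2 CPM and groups apart. It was at 188, 109 and 206 CPM after TGF-β1 then dexamethasone, against 1.92, 2.23 and 1.10 CPM after dexamethasone alone (6.87, SE 0.32, adjusted p = 1.83e-06). Chains of the integrins that release active TGF-β from its latent complex differed in direction. ITGAV, the shared alpha chain, was at 512, 547 and 635 CPM, against 131, 149 and 155 CPM after dexamethasone alone (1.96, SE 0.06, adjusted p = 9.69e-17). Its partner ITGB6 averaged 16.2 ± 4.68 CPM, against 3.37 ± 0.734 CPM after dexamethasone alone (2.32, SE 0.16, adjusted p = 1.16e-10), whereas ITGB8 averaged 16.8 ± 1.85 CPM, against 41.3 ± 5.94 CPM (-1.27, SE 0.10, adjusted p = 6.62e-10). All 3 had groups apart.

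To show the sequence next to members that rose together, 250 bases before a RefSeq start (GRCh38.p14) are given for 3 genes that rose, written 5′ to 3′ on the strand of the gene and credited to RefSeq. COL6A3 and TPM1 stand for the matrix and actin lists and IL11 for the secreted factors, and they were chosen after their values were seen. The TPM1 window precedes a start inside the gene, whose annotation begins at 63042747 on chromosome 15, and not the gene's outermost start. Capitals mark CAGAC or its reverse complement GTCTG, the core known to be bound by SMAD3 and SMAD4, and in IL11 also TGAGTCA, the core bound by AP-1 factors.
COL6A3, chr2:237414165-237414414, minus strand: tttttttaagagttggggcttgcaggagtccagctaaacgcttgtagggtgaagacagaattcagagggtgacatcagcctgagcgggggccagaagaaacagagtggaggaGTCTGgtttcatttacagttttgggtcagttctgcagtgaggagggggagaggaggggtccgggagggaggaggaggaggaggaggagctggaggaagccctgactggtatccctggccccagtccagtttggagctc
TPM1, chr15:63048239-63048488, plus strand: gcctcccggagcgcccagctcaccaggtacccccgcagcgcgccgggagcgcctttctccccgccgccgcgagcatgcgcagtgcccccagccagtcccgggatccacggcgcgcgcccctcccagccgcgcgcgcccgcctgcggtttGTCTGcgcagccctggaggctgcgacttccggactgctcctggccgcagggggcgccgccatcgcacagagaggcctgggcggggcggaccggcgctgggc
IL11, chr19:55370464-55370713, minus strand: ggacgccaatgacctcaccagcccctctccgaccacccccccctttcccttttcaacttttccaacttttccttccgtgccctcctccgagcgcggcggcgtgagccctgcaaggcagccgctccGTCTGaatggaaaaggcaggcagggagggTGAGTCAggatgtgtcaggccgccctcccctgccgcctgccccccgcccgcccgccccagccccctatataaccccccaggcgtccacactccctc
Searched on both strands over windows of the same length, CAGAC was present in 42.0% of windows of genes that rose at least 2-fold, in 37.2% of windows of those that fell at least 2-fold, in 36.5% of windows of all genes tested and in 38.0% of all RefSeq windows. TGAGTCA was present in 4.29%, 3.63%, 2.99% and 4.20% of these sets. Windows were at hand for 554 of the 776 genes that rose at least 2-fold, 528 of the 721 that fell and 10659 of the 13469 tested. A gene can have several windows, and a match describes letters in a window and not a bound site.

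Mesenchymal genes rose in most members, with exceptions among classical markers. Of 22 tested members 16 rose and 3 fell, with a median of 0.95. SNAI1, a zinc-finger repressor of epithelial genes (Entrez gene 6615, chromosome 20, 49982980 to 49988886), was at 47.8, 35.2 and 48.9 CPM after TGF-β1 then dexamethasone, against 3.25, 3.27 and 3.92 CPM after dexamethasone alone (3.63, SE 0.11, adjusted p = 3e-16). CDH2, N-cadherin, averaged 278 ± 26.2 CPM, against 129 ± 9.47 CPM after dexamethasone alone (1.11, SE 0.07, adjusted p = 6.62e-10). TAGLN, the actin-binding protein transgelin, was at 864, 836 and 736 CPM, against 64.3, 126 and 53.8 CPM after dexamethasone alone (3.41, SE 0.28, adjusted p = 7e-05). The annotated span of TAGLN overlaps that of PCSK7, and the kit does not mark strand, so reads from bases that both genes cover cannot be told apart. Spans of other named genes overlap too, among them FN1 (with ATIC), JUNB (HOOK2), IFIT1 (LIPA) and HSP90AA1 (WDR20). ACTA2, smooth muscle actin, fell, at 1.62, 1.04 and 2.37 CPM against 4.14, 3.12 and 4.07 CPM after dexamethasone alone (-1.04, SE 0.25, adjusted p = 0.00144), and it overlaps FAS.

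Actin and contraction genes rose in 35 of 64 members and fell in 11 (median 0.30). TPM1, a tropomyosin that stabilises actin filaments, was at 2393, 1746 and 1972 CPM after TGF-β1 then dexamethasone, against 316, 267 and 264 CPM after dexamethasone alone (2.85, SE 0.06, adjusted p = 1.36e-19). The groups were far apart for TPM1. Among 40 regulators of actin 21 rose and 7 fell.

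Epithelial junction genes mostly fell, while keratins moved in both directions. Of 22 adherens and tight junction members 14 fell and 1 rose (median -0.59). CDH1, E-cadherin, was at 78.3, 81.1 and 79.2 CPM after TGF-β1 then dexamethasone, against 126, 126 and 123 CPM after dexamethasone alone (-0.65, SE 0.08, adjusted p = 1.03e-05). PKP2, a plakophilin of desmosomes, averaged 22.9 ± 6.10 CPM, against 95.1 ± 3.02 CPM (-2.11, SE 0.09, adjusted p = 1.29e-13), and PPL, periplakin, 122 ± 34.0 CPM, against 493 ± 65.7 CPM (-2.05, SE 0.06, adjusted p = 2e-16). Among 13 keratins 7 rose and 4 fell. KRT15 fell to 1.62, 1.57 and 1.64 CPM, against 12.1, 12.8 and 15.3 CPM after dexamethasone alone (-3.08, SE 0.21, adjusted p = 1.21e-10). KRT14, a keratin of basal cells, was at 209, 343 and 117 CPM, against 44.8, 82.7 and 21.8 CPM after dexamethasone alone (2.23, SE 0.09, adjusted p = 1.43e-11). KRT17 rose by 1.68 on the log2 scale (SE 0.06), and since KRT14 and KRT17 have near-identical copies, their counts are uncertain where reads could be split.

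**Figure D3:**
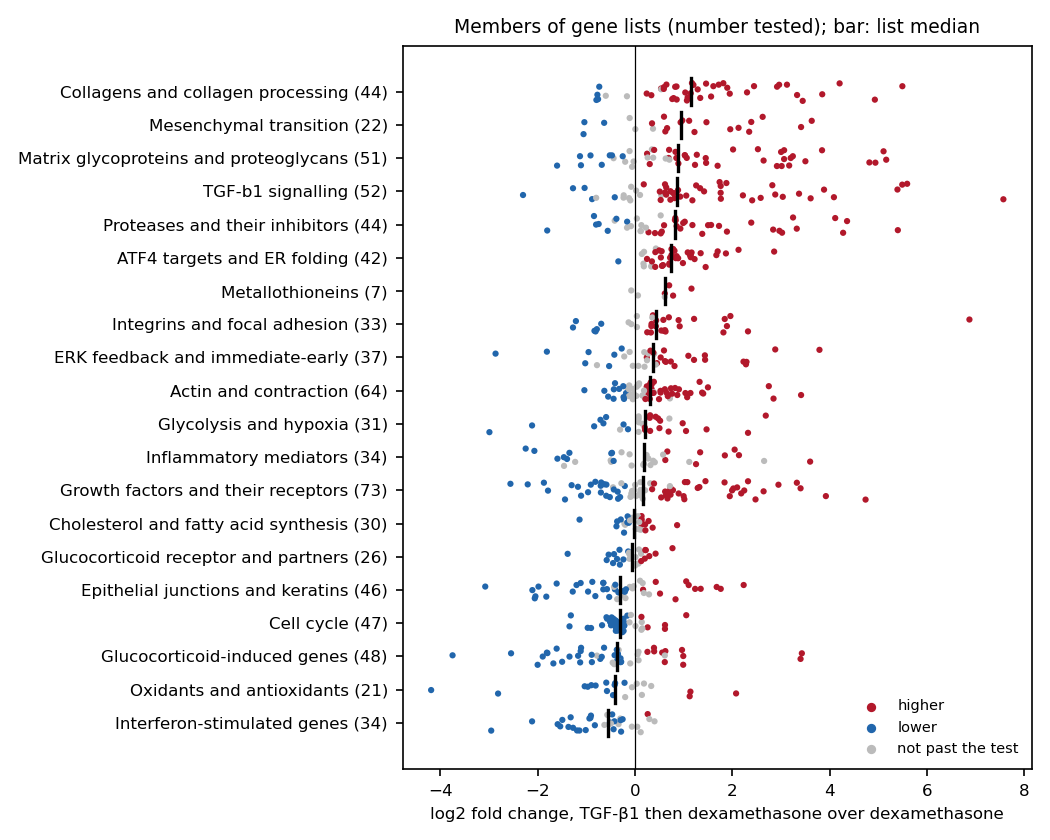
Log2 fold change of TGF-β1 then dexamethasone over dexamethasone alone for each tested member of 20 gene lists, with the number tested after each name and a black bar at the list median. Red points rose, blue points fell and grey points did not pass the test; collagens have a median of 1.16 and interferon-stimulated genes one of -0.55, against a median of -0.026 over all genes.

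The genes that glucocorticoids induce were more often lower than higher after TGF-β1. Of 48 tested members 27 fell (56.2%, against 26.0% of all genes) and 11 rose, with a median of -0.37, and 14 of the falls were at least 2-fold. The list also fell without the steroid: TGF-β1 alone lowered 25 of these members and raised 10, with a median of -0.44. Of all genes TGF-β1 alone lowered 25.5% and raised 24.6%. The difference between the effects with and without dexamethasone was above 0 for 6 of the 48 members and below 0 for 9. Of all genes tested, 3.01% had a difference called above 0 and 1.77% one below 0. FKBP5, a co-chaperone of the glucocorticoid receptor and a standard readout of its activity (Entrez gene 2289, chromosome 6, 35573590 to 35728583), was at 1326, 1721 and 1371 CPM after TGF-β1 then dexamethasone, against 2241, 2484 and 2505 CPM after dexamethasone alone (-0.71, SE 0.09, adjusted p = 5.09e-05). The highest library with TGF-β1 lay below the lowest without it. KLF15, a glucocorticoid-induced transcription factor of metabolism (Entrez gene 28999, chromosome 3, 126288125 to 126357408), was at 4.54, 3.48 and 4.38 CPM, against 53.5, 42 and 64.9 CPM after dexamethasone alone (-3.75, SE 0.13, adjusted p = 1.2e-15). MAOA, a monoamine oxidase (Entrez gene 4128, chromosome X, 43655006 to 43746817), was at 9.40, 16.2 and 12 CPM, against 76.1, 72 and 70.5 CPM (-2.55, SE 0.11, adjusted p = 2.71e-13). Every library with TGF-β1 lay below every library without it for both genes, as for 22.1% of all genes. SCNN1A, which encodes a subunit of ENaC, the sodium channel of epithelia (Entrez gene 6337, chromosome 12, 6346847 to 6377359), was at 37.8, 39.3 and 49.1 CPM, against 131, 130.3 and 175 CPM (-1.80, SE 0.07, adjusted p = 2.39e-14), and its annotation overlaps LTBR. PDK4, an inhibitory kinase of pyruvate dehydrogenase, averaged 6.24 ± 3.35 CPM, against 24.1 ± 7.77 CPM after dexamethasone alone (-2.0, SE 0.15, adjusted p = 6.62e-10).

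Other widely used glucocorticoid readouts had smaller differences. PER1, a clock gene, was at 323, 317 and 274 CPM after TGF-β1 then dexamethasone, against 307, 305 and 268 CPM after dexamethasone alone (0.05, SE 0.07, adjusted p = 0.555). TSC22D3, which encodes the anti-inflammatory protein GILZ, was at 278, 312 and 223 CPM, against 358, 412 and 339.9 CPM; the log2 difference of -0.46 (SE 0.19, adjusted p = 0.0952) did not pass the test, although the groups did not overlap. It passed in a model of the 6 libraries alone (-0.45), with scaling by total count alone (-0.66) and without replicate 2 of every group (-0.50). DUSP1, a phosphatase that switches off MAP kinases, was at 388, 396 and 258 CPM, against 268, 292 and 224 CPM after dexamethasone alone. It rose by 0.39 on the log2 scale (SE 0.08, adjusted p = 0.000664) with overlapping groups, a call that ended without the block (0.41) and with scaling by total count alone (0.19). SGK1, a kinase that acts on sodium channels, averaged 128 ± 21.7 CPM, against 169 ± 21.2 CPM (-0.43, SE 0.16, adjusted p = 0.062), and did not pass the test. SGK1 passed without replicate 1 of dexamethasone alone (-0.53), without replicate 2 of every group (-0.46), in the 6 libraries alone (-0.41), with DESeq2 (-0.40) and with scaling by total count alone (-0.63).

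KLF9, a transcription factor, averaged 139 ± 25.3 CPM after TGF-β1 then dexamethasone and 179.6 ± 35.6 CPM after dexamethasone alone (-0.37, SE 0.10, adjusted p = 0.0103). ZBTB16, a zinc-finger factor, averaged 81.3 ± 3.91 CPM and 99.8 ± 7.01 CPM after dexamethasone alone (-0.30, SE 0.11, adjusted p = 0.0365). Both calls ended without the block. The KLF9 call also ended when replicate 1 or 3 of TGF-β1 then dexamethasone or replicate 1 or 2 of dexamethasone alone was left out (-0.34 to -0.30), and the ZBTB16 call ended without replicate 1 or 3 of the first group or without any 1 library of the second (-0.33 to -0.22). Without replicate 1 of every group both calls ended (-0.31 for KLF9 and -0.24 for ZBTB16). The ZBTB16 call also ended with DESeq2 (-0.27) and without replicate 3 of every group (-0.28). CDKN1C, a cell cycle brake induced by glucocorticoids, was at 81.5, 270.1 and 67.5 CPM, against 249, 412 and 251 CPM (-1.35, SE 0.24, adjusted p = 0.00333). Replicate 2 was the highest of its group in both, and the groups overlapped. The CDKN1C call ended without the block (-1.14) and in a model of the 6 libraries alone (-1.35), as well as without replicate 1 or replicate 3 of every group (-1.21 and -1.06).

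Of the genes in the list that rose, ANGPTL4, a secreted inhibitor of lipoprotein lipase, was at 54.1, 27 and 39.6 CPM after TGF-β1 then dexamethasone, against 4.14, 5.06 and 3.11 CPM after dexamethasone alone (3.40, SE 0.24, adjusted p = 2.87e-07). The receptor gene NR3C1 itself was at 118, 149.7 and 133 CPM, against 104, 152 and 116 CPM (0.12, SE 0.06, adjusted p = 0.0655). It passed the test with RLE size factors (0.14), and when replicate 2 of dexamethasone alone or of every group was left out (0.20 each). Of 26 tested members of the list of the receptor and its partners 7 rose (26.9%) and 10 fell (38.5%), with a median of -0.06. The shares of all genes were 24.0% and 26.0%. The 12 chaperones had 3 rises and 5 falls, and the 12 coregulators 4 of each. HSP90AA1, an inducible chaperone that holds the receptor ready for ligand, averaged 519 ± 30.4 CPM, against 776 ± 41.2 CPM after dexamethasone alone (-0.58, SE 0.05, adjusted p = 7.03e-09). HSP90AB1, of the same family and list, rose, at 909.3 ± 54.5 CPM against 678.5 ± 28.8 CPM (0.42, SE 0.05, adjusted p = 1.65e-07). FKBP4 rose by 0.29, a call that ended without the block (0.30) and with scaling by total count alone (0.09).

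**Figure D4:**
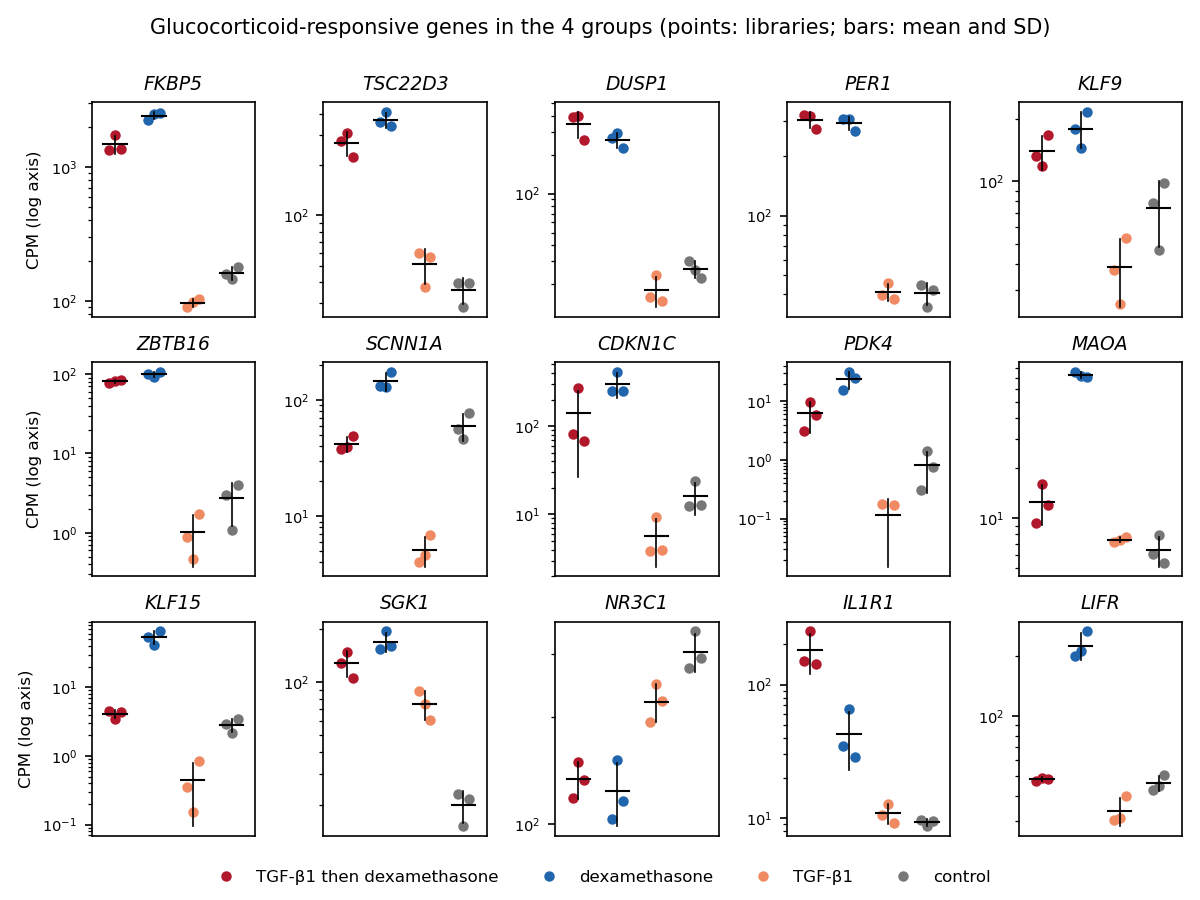
CPM on log axes in the libraries of TGF-β1 then dexamethasone (red), dexamethasone alone (blue), TGF-β1 alone (orange) and control (grey) for 15 genes, with bars for the mean and SD. PER1 is near 305 and 293 CPM in the groups with dexamethasone, KLF15 falls to 3.48 to 4.54 CPM against 42 to 64.9 CPM, and the replicate of PDK4 with a count of 0 after TGF-β1 alone is not drawn.

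Inflammatory genes gave no common direction. Of 34 tested members 8 rose (23.5%) and 9 fell (26.5%), shares near those of all genes (24.0% and 26.0%), with a median of 0.18. IL11, a cytokine of the interleukin-6 family, was at 23.7, 16.5 and 14.9 CPM after TGF-β1 then dexamethasone, against 1.18, 1.49 and 1.44 CPM after dexamethasone alone (3.60, SE 0.18, adjusted p = 8.42e-13). LIF, of the same family, averaged 13.1 ± 4.43 CPM, against 3.16 ± 0.161 CPM (2.05, SE 0.20, adjusted p = 3.23e-07), while its receptor LIFR (Entrez gene 3977, chromosome 5, 38474668 to 38608403) averaged 48.3 ± 1.05 CPM, against 226 ± 34.9 CPM after dexamethasone alone (-2.25, SE 0.07, adjusted p = 3e-16). IL1R1, the signalling receptor of interleukin-1, was at 149, 250.4 and 144 CPM, against 34.6, 65.2 and 28.4 CPM (2.14, SE 0.15, adjusted p = 2.88e-06). Replicate 2 was the highest for IL1R1 in both groups, which did not overlap. The chemokine CXCL14 averaged 11.5 ± 2.76 CPM, against 48.4 ± 17.9 CPM (-2.07, SE 0.18, adjusted p = 1.47e-06). The chemokines CXCL1, CXCL5 and CCL2 were at 0.744 to 3.48 CPM in all 6 libraries, with overlapping groups and no call.

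Interferon-stimulated genes fell in 23 of 34 members and rose in 1, with a median of -0.55, and 0 rose without replicate 1 of either group. OAS1, a sensor of double-stranded RNA, was at 1.13, 0.87 and 1.09 CPM after TGF-β1 then dexamethasone, against 8.57, 7.14 and 8.62 CPM after dexamethasone alone (-2.95, SE 0.21, adjusted p = 1.72e-10). IFIT1, which binds foreign RNA, averaged 2.22 ± 0.681 CPM, against 9.51 ± 0.475 CPM (-2.12, SE 0.20, adjusted p = 2.18e-08). Neither gene overlapped between the groups.

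Cell cycle genes fell in most members. Of 47 tested members 36 fell and 5 rose, with a median of -0.31, and 3 rose without replicate 3 of either group. All 18 mitotic genes fell, between -0.97 and -0.24, and 14 of 19 replication genes fell. BUB1B, a spindle checkpoint kinase, was at 76.7, 91.9 and 73.3 CPM after TGF-β1 then dexamethasone, against 148, 179 and 147 CPM after dexamethasone alone (-0.97, SE 0.06, adjusted p = 6.48e-12). E2F2, a transcription factor of S phase, averaged 18.9 ± 3.90 CPM, against 48.4 ± 2.47 CPM (-1.32, SE 0.10, adjusted p = 1.83e-09). Of the brakes, CDKN2B, an inhibitor of CDK4 and CDK6, was at 133, 134 and 124 CPM, against 62, 63.8 and 61.7 CPM (1.05, SE 0.06, adjusted p = 1.67e-11). CDKN2A rose by 0.62 (SE 0.05, adjusted p = 6.31e-10). In bulk samples, fewer dividing cells and less of these RNAs per cell cannot be told apart.

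Genes of amino acid synthesis and protein folding rose. Of 42 tested members of the ATF4 and endoplasmic reticulum list 34 rose and 1 fell, with a median of 0.73. CREB3L1, a membrane-bound transcription factor known to drive collagen secretion, was at 80.7, 83.5 and 69.8 CPM after TGF-β1 then dexamethasone, against 13.8, 12.3 and 7.95 CPM after dexamethasone alone (2.86, SE 0.11, adjusted p = 7.09e-14). PYCR1, an enzyme of proline synthesis, averaged 137 ± 21.3 CPM, against 38.2 ± 7.84 CPM (1.87, SE 0.08, adjusted p = 4.37e-12). Both were apart in every library.

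Glycolysis and hypoxia genes were divided, with 15 of 31 higher and 8 lower (median 0.21). HK2, the hexokinase of proliferating cells, fell to 45, 43.2 and 56.9 CPM, against 217, 174 and 235 CPM after dexamethasone alone (-2.12, SE 0.12, adjusted p = 1.37e-07). CA9, a carbonic anhydrase, was at 3.08, 11.7 and 9 CPM, against 45.7, 76 and 63.8 CPM (-2.99, SE 0.35, adjusted p = 0.000359). VEGFA, a growth factor of blood vessels, averaged 105 ± 24 CPM, against 21.5 ± 2.14 CPM (2.32, SE 0.42, adjusted p = 0.00384), and its call ended without replicate 1 or without replicate 3 of every group (2.22 and 2.16). The groups were apart for HK2, CA9 and VEGFA. MLXIPL, the sugar-responsive factor ChREBP, had the largest fall among genes of at least 1 log2 CPM with groups apart, at 0.81, 1.57 and 0.73 CPM against 19.7, 12.3 and 28.1 CPM (-4.58, SE 0.25, adjusted p = 1.9e-11). Cholesterol and fatty acid genes had 9 higher and 9 lower of 30 (30.0% each), near the shares of all genes (24.0% and 26.0%). Leaving out replicate 1 of TGF-β1 then dexamethasone gave 5 and 5, and 3 were lower without replicate 3 of either group and 4 without replicate 1 of dexamethasone alone. SCD, the desaturase of stearate, rose by 0.86 (SE 0.05, adjusted p = 8.23e-12), and ELOVL6, a fatty acid elongase, fell by 1.14 on the log2 scale (SE 0.08, adjusted p = 4.64e-10).

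Immediate-early and ERK feedback genes rose in 19 of 37 members and fell in 7 (median 0.37). JUNB, a component of AP-1 and a SMAD target, was at 442, 356 and 391 CPM after TGF-β1 then dexamethasone, against 56.9, 55 and 50.7 CPM after dexamethasone alone (2.88, SE 0.08, adjusted p = 1.65e-13). Its partner FOS moved the other way, at 2.92, 0.87 and 1.76 CPM against 15.8, 5.5 and 15.9 CPM (-2.87, SE 0.21, adjusted p = 5.31e-10). Of 73 growth factors and receptors 33 rose (45.2%) and 23 fell (31.5%), against 24.0% and 26.0% of all genes (median 0.16). AREG, amphiregulin, was at 18.8, 16 and 15.4 CPM, against 61.6, 44.6 and 62 CPM (-1.79, SE 0.10, adjusted p = 7.75e-12), and its relative EREG, epiregulin, averaged 2.66 ± 1.32 CPM, against 11.8 ± 2.90 CPM (-2.20, SE 0.18, adjusted p = 2.08e-09). Both bind the EGF receptor.

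Antioxidant and oxidase genes were lower in 12 of 21 members and higher in 3 (median -0.41). HMOX1, the haem-degrading oxygenase, rose to 114, 112 and 116 CPM after TGF-β1 then dexamethasone, against 31.2, 21.1 and 28.6 CPM after dexamethasone alone (2.08, SE 0.07, adjusted p = 3.79e-15). AKR1B10, an aldo-keto reductase, averaged 0.503 ± 0.474 CPM, against 7.78 ± 1.04 CPM after dexamethasone alone (-4.19, SE 0.38, adjusted p = 1.56e-08). Neither overlapped between the groups. Of 7 tested metallothioneins, metal-binding proteins that glucocorticoids also induce, 4 rose and none fell (median 0.61), and their near-identical copies can split reads. Without replicate 3 of TGF-β1 then dexamethasone 2 rose and 1 fell, and without replicate 3 of dexamethasone alone 2 rose, as MT1F (0.54 and 0.70) and MT1M (0.70 and 0.71) then missed the threshold. The calls of MT1F and MT1M also ended with DESeq2 (0.77 and 0.74) and with scaling by total count alone (0.58 and 0.5).

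Markers of other cell types moved beside these results. The 10 fibroblast markers summed to 146.8 to 187.2 CPM after TGF-β1 then dexamethasone and 34.37 to 44.06 CPM after dexamethasone alone. Nearly all of it was PDGFRB, a growth factor receptor, at 174, 146 and 132 CPM against 39.9, 35 and 29.4 CPM (2.13, SE 0.06, adjusted p = 1.72e-16), and the matrix markers DCN, LUM and DPT were each under 0.2 CPM. MFAP4, a microfibril protein in the same list, was at 10.4, 5.92 and 12.8 CPM, against 1.92, 1.19 and 2.06 CPM after dexamethasone alone (2.53, SE 0.19, adjusted p = 6.35e-10). Only 3 markers of this list were tested, and COL14A1, a collagen, fell (-1.36, SE 0.33, adjusted p = 0.00184). It averaged 0.84 ± 0.138 CPM, against 2.03 ± 0.526 CPM after dexamethasone alone. The 10 endothelial markers summed to 95.93 to 143.2 CPM and 168 to 343.9 CPM, of which KDR, a VEGF receptor, held 85.6, 136 and 87.3 CPM against 163, 336 and 184 CPM. KDR fell (-1.11, SE 0.07, adjusted p = 3.89e-10). In cells without dexamethasone it was at 0.271 ± 0.318 CPM in control and 0.594 ± 0.12 CPM after TGF-β1 alone. ROBO4, another marker of the list, rose (2.14, SE 0.34, adjusted p = 3.38e-05). The leukocyte markers summed to 21.75 to 31.57 CPM and 18.59 to 25.13 CPM, and the alveolar and A549 transcripts to 39.72 to 46.82 CPM and 44.5 to 68.72 CPM. The part of these markers in the results above was not tested.

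The TGF-β1 effect with dexamethasone was then set beside the effect without it, TGF-β1 alone against control, which uses none of the same libraries. Of the genes that rose with dexamethasone 78.6% also rose without it, which is 76.7% of those that rose without it, and 2537 genes were in both sets. Of the genes that fell 74.8% also fell without dexamethasone (76.2% of those without), 2617 in all. Another 44 genes rose with dexamethasone and fell without it, and 37 fell with it and rose without it. Across genes the log2 fold changes correlated with r = 0.884, given as a description since genes are not independent replicates. TGFBI (5.49 with dexamethasone and 5.54 without), COL1A1 (4.20 and 4.22), FN1 (3.84 and 3.87) and CDH1 (-0.65 and -0.66) had nearly equal effects. FKBP5 did too (-0.71 and -0.73), although dexamethasone alone held 2410 ± 147 CPM of it and control 161 ± 17.3 CPM.

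The difference between the effects was tested as an interaction, the log2 effect of TGF-β1 with dexamethasone minus that without. It was above 0 for 406 genes (3.01%) and below 0 for 238 (1.77%), 644 in all (4.78%). These counts rest on the block: without it 65 and 54 genes passed. Of the interactions of named genes, 13 passed under every alternative that gave an interaction for them (a model of the 6 libraries alone gives none, and MGAT4A is filtered out at a minimum count of 30), and those described in the next paragraph are among them unless stated.

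**Figure D5:**
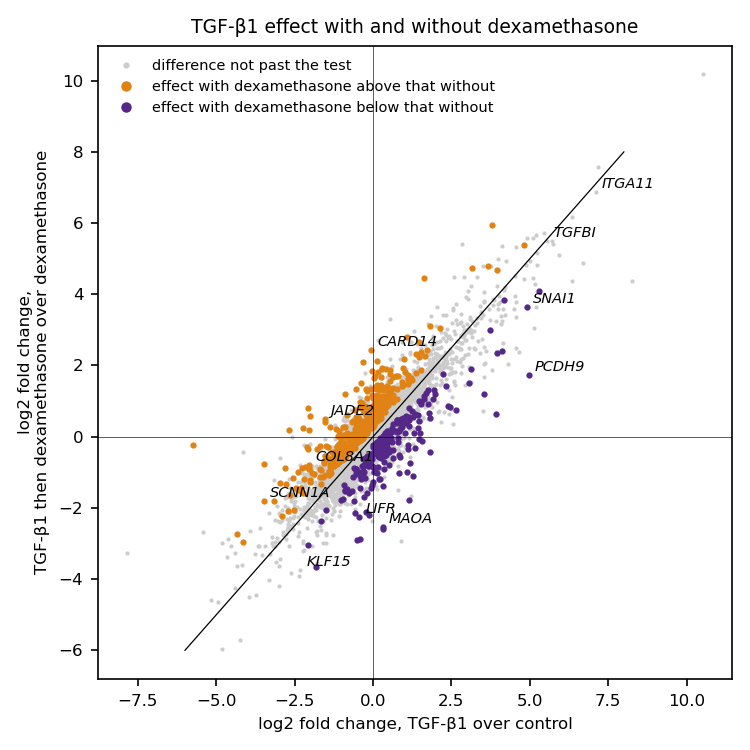
Log2 fold change of TGF-β1 then dexamethasone over dexamethasone alone (y axis) against that of TGF-β1 alone over control (x axis), 1 point per gene tested, with a line of equal effects. Orange points have an interaction above 0 (406 genes) and purple points one below 0 (238 genes); SCNN1A lies above the line (-1.80 and -3.49) and MAOA below it (-2.55 and 0.31).

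SCNN1A fell with and without dexamethasone, and less with it (-1.80 and -3.49, interaction 1.69, SE 0.14, adjusted p = 1.27e-07). Its levels were 42.1 ± 6.17 CPM after TGF-β1 then dexamethasone, 146 ± 25.4 CPM after dexamethasone alone, 5.17 ± 1.48 CPM after TGF-β1 alone and 59.8 ± 15.6 CPM in control. COL8A1 behaved likewise (-0.79 and -2.03, interaction 1.23, SE 0.10, adjusted p = 2.06e-07). JADE2, a chromatin-associated protein (Entrez gene 23338, chromosome 5, 134524009 to 134583227), rose with dexamethasone, at 150.2 ± 22.6 CPM against 106 ± 12.1 CPM, and fell without it, at 28.5 ± 7.12 CPM after TGF-β1 alone against 81.4 ± 2.92 CPM in control (interaction 2.05, SE 0.14, adjusted p = 1.61e-06). CARD14, a scaffold of NF-κB signalling that overlaps SGSH in the annotation, was at 20.9 ± 7.46 CPM after TGF-β1 then dexamethasone against 3.42 ± 0.752 CPM after dexamethasone alone, and 2.79 ± 0.75 CPM after TGF-β1 alone against 2.79 ± 0.953 CPM in control (interaction 2.49, SE 0.37, adjusted p = 0.000315). MGAT4A, a glycosyltransferase, and CXCL5, a chemokine, had interactions of 2.60 (SE 0.39) and 2.49 (SE 0.39), with levels under 7 CPM in every group.

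The effect was lower with dexamethasone for MAOA (-2.55 and 0.31, interaction -2.85, SE 0.21, adjusted p = 4.56e-08). MAOA stood at 72.9 ± 2.92 CPM after dexamethasone alone, the highest of the groups, and at 12.5 ± 3.42 CPM after TGF-β1 then dexamethasone, against 7.45 ± 0.279 CPM after TGF-β1 alone and 6.45 ± 1.32 CPM in control. LIFR (interaction -1.81, SE 0.11, adjusted p = 1.41e-09), HK2 (-1.89, SE 0.18, adjusted p = 0.000146) and GREB1, an oestrogen-regulated gene (-2.91, SE 0.28, adjusted p = 5.34e-06), were also highest after dexamethasone alone. Of genes that TGF-β1 raised in both settings, SNAI1 rose less with dexamethasone (3.63 and 4.91, interaction -1.28, SE 0.19, adjusted p = 0.00015), as did CDKN2B (1.05 and 1.92, interaction -0.86, SE 0.09, adjusted p = 1.57e-06). SNAI1 was at 44 ± 7.64 CPM after TGF-β1 then dexamethasone and 98.6 ± 12 CPM after TGF-β1 alone. SGK1, which did not pass the test with dexamethasone, rose without it (1.81), with an interaction of -2.23 (SE 0.26, adjusted p = 0.00307).

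NR3C1 fell after TGF-β1 alone, at 221 ± 27 CPM against 305 ± 37.8 CPM in control (-0.46, SE 0.05, adjusted p = 2.03e-07), and its interaction was 0.59 (SE 0.08, adjusted p = 2.91e-05). DUSP1 had an interaction of 0.94 (SE 0.14, adjusted p = 0.000833), with 18 ± 4.68 CPM after TGF-β1 alone against 26.1 ± 3.87 CPM in control. IL1R1 had one of 2.01 (SE 0.29, adjusted p = 0.00446), and FOS one of -2.44 (SE 0.38, adjusted p = 0.00027). BMP4, a ligand of the same family that was named after its values were seen, had one of 1.93 (SE 0.12, adjusted p = 2.52e-09), with 18.2 ± 6.85 CPM after TGF-β1 then dexamethasone, 34.3 ± 12.2 CPM after dexamethasone alone, 24.7 ± 9.81 CPM after TGF-β1 alone and 172 ± 47.5 CPM in control. These 5 interactions did not pass without the block, and that of IL1R1 did not pass without replicate 1 of every group (2.02). In the inflammatory list, 8 of 34 interactions were above 0 and 1 below, against 3.01% and 1.77% of all genes. TGF-β1 alone lowered 18 members of this list and raised 7, where it lowered 25.5% and raised 24.6% of all genes. CXCL1 and CCL2, which attract neutrophils and monocytes and were named after their values were seen, had interactions of 2.87 (SE 0.54, adjusted p = 0.00169) and 1.93 (SE 0.41, adjusted p = 0.0056), with 1.26 ± 0.606 and 2.02 ± 1.27 CPM after TGF-β1 then dexamethasone and 6.49 ± 1.87 and 11.7 ± 3.96 CPM in control. TGF-β1 alone lowered all 9 tested chemokines of this list, and 3 of the 9 fell with dexamethasone. CXCL1 and CCL2 had no called TGF-β1 effect with dexamethasone, where their levels were low in every library, as given above. The interaction call of CXCL1 ended without replicate 1 of every group (2.32). That of CCL2 ended without the block (2.03) and without replicate 3 of every group (2.06).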

How the data were processed

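Total RNA of integrity above 8 (500 ng per library) from 3 labelled replicates of each of 4 groups was sequenced with a kit that does not mark strand, per the labels' protocols. The deposited table holds raw counts per gene made by the authors with featureCounts on hg38, per the submitters' processing notes; the sources used here do not state aligner, annotation, versions or strand setting. Of 18 count columns 12 matched a library and 6 were not used. Of 28395 gene identifiers 27745 matched a symbol (99.943% of counts), 650 did not, and 3893 had no count. Library totals were 5861591 to 19727235.

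Counts were filtered with edgeR 4.0.16 (filterByExpr, minimum count 10, leaving 13469 genes) and scaled by TMM in R 4.3.3 with limma 3.58.1. A model of 4 group means and the replicate number as a block was fitted over all 12 libraries (6 residual degrees of freedom) and tested with the quasi-likelihood F test of edgeR, and p-values were adjusted over all genes tested by Benjamini and Hochberg's method at a threshold of 0.05. Standard errors came from the fold change and F, and CPM from TMM-scaled sizes. Same-numbered libraries deviated together in 18 of 18 pairs (correlations 0.25 to 0.541, over the threshold of 0.1), and the biological coefficient of variation was 0.0577 with the block and 0.122 without it. The replicates are labelled biological, and p-values rest on the spread between these libraries that remains after the block.

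Alternatives were no block, RLE size factors, library size only, no filter, minimum count 30, DESeq2 1.42.0, the 6 libraries alone, and leaving out each library or each replicate number. The fit was tested on simulated data. Named genes were 20 fixed by name (NOX4 was not tested), the 10 largest rises and 10 largest falls with groups apart, up to 3 members per list and direction, and the 8 largest interactions in each direction; others are said to be chosen after their values were seen, and 1 gene of the rule is not reported here. The members and lists were chosen with earlier results of these data known. Tables and figures were made in Python 3.11.15 with pandas 2.3.3 and matplotlib 3.10.9.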

Additional observations from a re-analysis of the deposited data

Results flagged for a closer look

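The test of the difference between the TGF-β1 effects with and without dexamethasone passed for 406 genes with an interaction above 0 and 238 with one below 0. Among genes named in the text, the log2 interaction was above 0 for MGAT4A (2.60), CARD14 (2.49), CXCL5 (2.49), JADE2 (2.05), SCNN1A (1.69) and COL8A1 (1.23). It was below 0 for GREB1 (-2.91), MAOA (-2.85), SGK1 (-2.23), HK2 (-1.89), LIFR (-1.81), SNAI1 (-1.28) and CDKN2B (-0.86). These 13 passed under every alternative that gave an interaction for them; the 6 libraries alone give none, and MGAT4A has none at a minimum count of 30. The interactions of CXCL1 (2.87), IL1R1 (2.01), BMP4 (1.93), CCL2 (1.93), DUSP1 (0.94), NR3C1 (0.59) and FOS (-2.44) passed with the block and were lost under at least 1 alternative, as given beside their values.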

How the results depend on the processing

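Without the replicate block 2145 genes were higher and 2207 lower, and 65 and 54 interactions were above and below 0. With scaling by library size only 1804 genes were higher and 6452 lower. Without the low-count filter 358 interactions were below 0. Leaving out 1 library, or 1 replicate number from every group, gave 2368 to 3321 genes higher, 2242 to 3616 lower, 720 to 852 at least 2-fold higher and 599 to 784 at least 2-fold lower. Interactions above 0 ranged from 134 to 602 and those below 0 from 85 to 359: 134 and 85 without replicate 1 of every group, 602 and 359 without replicate 2, and 177 and 102 without replicate 3. SMAD5, higher by 0.18 on the log2 scale, was at -0.02 with library size only. The cause was not tested. Of 165 named genes 155 had a called fold change, 130 of them under every alternative that gave a value, and of 54 interactions examined 42 were called, 13 of them under every alternative that gave a value. Counts of list members moved by over 1.5 times in 64 of the comparisons of a list count with an alternative and stayed within it in 768, with 14 of 52 counts moved with library size only and 13 without the block. The lower depth of replicates 1 and 2, next to the more deeply sequenced replicate 3, limits the precision for genes of few counts.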
